A study of Mus musculus with 15 samples.

Results

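The genes described here are the nuclear-encoded subunit genes of the mitochondrial respiratory chain, including the ATP synthase, measured as RNA in extracellular vesicles (EVs) from mouse plasma. They were chosen by gene symbol alone, as all symbols that begin with Nduf and a, b, c, s or v with a digit, Uqcr, Cox followed by a digit from 4 to 8 and a letter, or Atp5, together with Sdha, Sdhb, Sdhc and Sdhd, and pseudogene symbols were left out. This gave 84 of the 43472 gene symbols in the files, of which 37 were placed in complex I, 4 in complex II, 8 in complex III, 18 in complex IV and 17 in complex V. EV RNA was sequenced from 15 libraries, of which 3 were from WT (black 6) mice, 6 from dystrophic mice that lack Sgcb, and 6 from hypertrophic mice. The labels give the hypertrophic mice as Magic-F1 and the methods of the study as Mstn-null, and the labels give the source of the EVs as serum where the design text and the methods give plasma. The methods give mice of 3 to 6 months, with EVs of 2 to 3 animals combined for each sample, and a preamplification of the RNA. No mice received a treatment. EVs of plasma come from many cell types, so the cells that released this RNA are not known.

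The respiratory chain sits in the inner mitochondrial membrane. Complex I (NADH dehydrogenase) and complex II (succinate dehydrogenase) pass electrons to ubiquinone, complex III (the cytochrome bc1 complex) passes them to cytochrome c, and complex IV (cytochrome c oxidase) passes them to oxygen, while complex V (the ATP synthase) uses the resulting proton gradient to make ATP. Most subunits are encoded in the nucleus, and the heart and skeletal muscle replace some ubiquitous subunits of complex IV by isoforms of their own, such as Cox6a2, Cox7a1 and Cox8b. The symbols do not follow present assignments in every case, since Ndufa4 is now counted as a subunit of complex IV, Cox7a2l is known for its role in the assembly of supercomplexes, and Atp5s and Atp5sl are not core subunits of the ATP synthase. Each gene was kept in the complex that its symbol names.

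Reads counted on genes ran from 27227 to 32563362 per library, and values are given as CPM, the counts of a gene scaled to a common total of counts on genes. WT replicate 1 stood apart with 27227 counts, so that the 3 counts that an observed count of 0 still allows came to 110 CPM there and to 0.0921 CPM in dystrophic replicate 6, the deepest library. Such limits cover counting error only, because copies made in the amplification are not independent molecules. The number in the title and that of the deposited counts are crossed between the conditions for 6 libraries (hypertrophic replicates 1 to 3 and dystrophic replicates 4 to 6), and the comparisons were therefore repeated after an exchange of their conditions and in the 9 other libraries. Replicate numbers name libraries only, and p-values measure the spread between these pooled samples. Erythroid and platelet markers were broadly counted, with 8 of 9 and 10 of 11 genes in 10 or more libraries. Skeletal muscle markers were not, with 2 of 13 at 0 in every library, none in 10 or more libraries and a median of 2 libraries.

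Most respiratory chain genes were counted in some libraries of each condition and missing from others. Of the 84 genes, 4 had no count in any library, 6 were counted in 1 to 4 libraries, 41 in 5 to 9 and 33 in 10 or more, with a median of 9 libraries. Only Cox5a and Cox8a, both from complex IV, were counted in all 15 libraries. Among the 13281 genes of the files with a count in any library, the median was 3 libraries and 9.68% were counted in 10 or more. The complexes differed in this respect: the median was 7 libraries for complex I, 9 for complex II, 9.5 for complexes III and IV and 11 for complex V. Low counts were rare, since 557 of the 1260 values of a gene in a library (44.2%) were 0, 654 (51.9%) were 10 or more, and only 49 (3.89%) lay between 1 and 9.

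**Figure D1:**
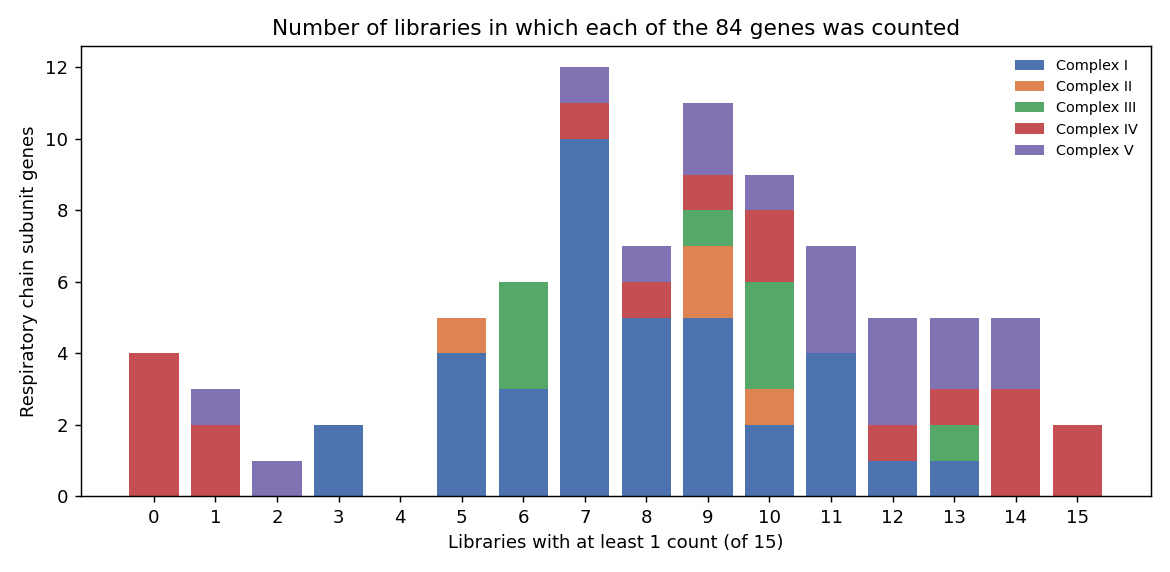
The bars give the number of respiratory chain subunit genes (y axis) by the number of libraries in which they had at least 1 count (x axis, of 15), coloured by complex. Complex IV holds both ends, with 4 genes at 0 libraries and 2 genes at 15, while most of the 37 genes of complex I lie between 5 and 9.

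Genes were also at 0 where the depth predicted counts. For each gene and library, a count was predicted from the pooled share of the gene in the other libraries of the same condition and the depth of the library. Where at least 10 counts were predicted, the respiratory chain genes were at 0 in 335 of 974 cases (34.4%), against 55.9% for all genes. This share was 41.8% for complex I, 41.2% for complex II, 38.2% for complex III, 22.2% for complex IV and 25.5% for complex V. In the same libraries it was 61.8% for the nuclear-encoded proteins of the mitochondrial ribosome, 9.62% for the mitochondrially encoded subunits and 6.78% for the cytosolic ribosomal proteins. These are descriptions with no test, since genes of a library share its depth and its amplification. In a library much deeper than the others of its condition, a prediction of 10 can rest on very few counts. For Uqcrfs1 in WT replicate 2, it rested on 1 count in WT replicate 3. Lists of sparse genes are therefore not strictly comparable with lists of abundant ones.

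**Figure D2:**
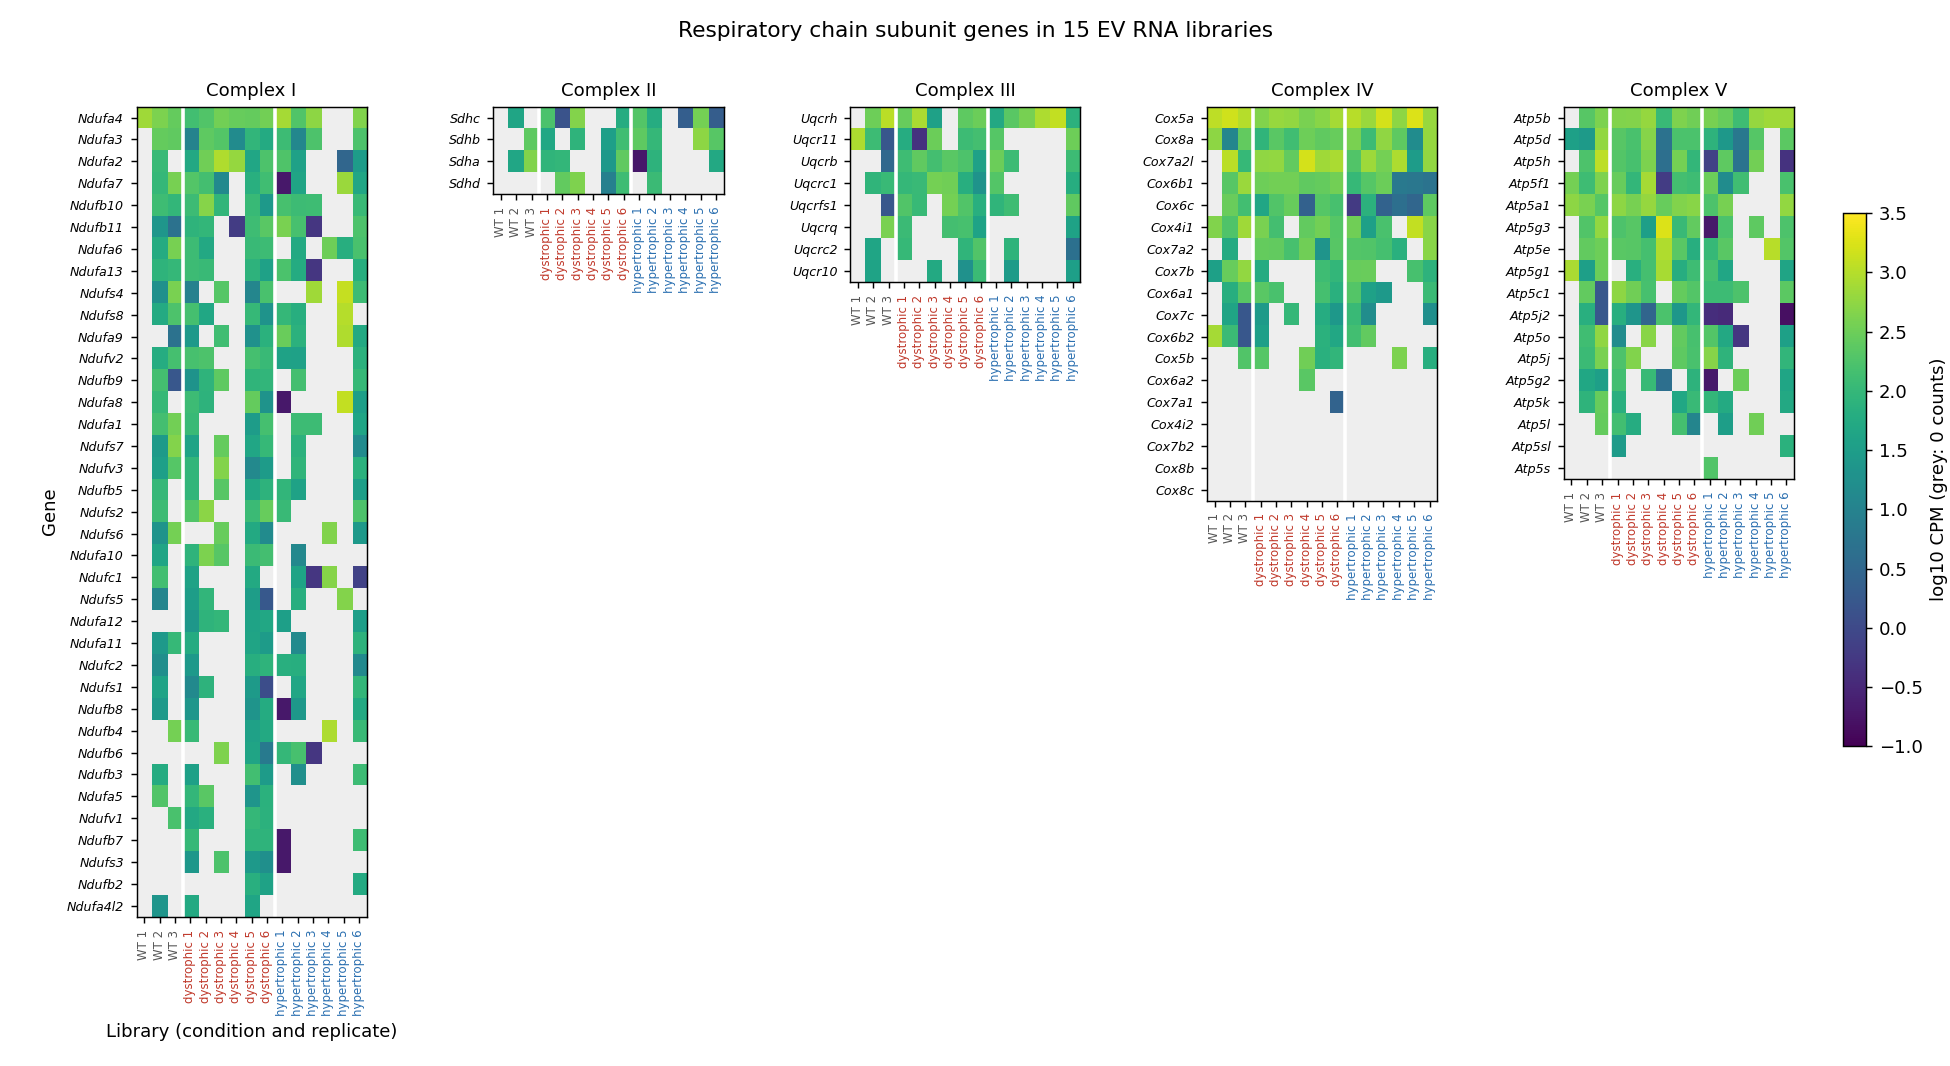
Each row is a gene and each column a library (grey, red and blue labels for WT, dystrophic and hypertrophic), and the colour gives log10 CPM, with grey for 0 counts. Genes are ordered within each complex by the number of libraries in which they were counted, and grey fields run through most of complex I in WT replicate 1, dystrophic replicate 4 and hypertrophic replicates 3 to 5.

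The number of genes with a count varied more between libraries than between conditions. The WT-derived libraries held 11, 61 and 53 of the 84 genes. Of the same genes, 27 to 75 (median 59) were counted in the dystrophic-derived and 18 to 66 (median 39) in the hypertrophic-derived libraries. The ranges overlapped, and the means were 41.7 ± 26.9 (SD, n = 3), 56.2 ± 20 (SD, n = 6) and 40.2 ± 21.5 genes (SD, n = 6). The shallowest libraries, WT replicate 1 and hypertrophic replicates 5 and 4, held 11, 20 and 18 genes, and the deepest, dystrophic replicate 6, held 75. Depth alone did not order the libraries, since dystrophic replicate 1 held 71 genes at 1170610 counts while dystrophic replicate 4 held 27 at 1608699 counts. With each library sampled down to the 27227 counts of WT replicate 1, the same libraries held 58.5 and 20.4 genes as the mean of 20 draws. All 37 genes of complex I were counted together only in dystrophic replicate 5. All 8 genes of complex III were counted in dystrophic replicates 5 and 6 and hypertrophic replicate 6, and all 4 genes of complex II in dystrophic replicate 6 and hypertrophic replicate 2. No library held all genes of complex V, or all 14 genes of complex IV that had any count.

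**Figure D3:**
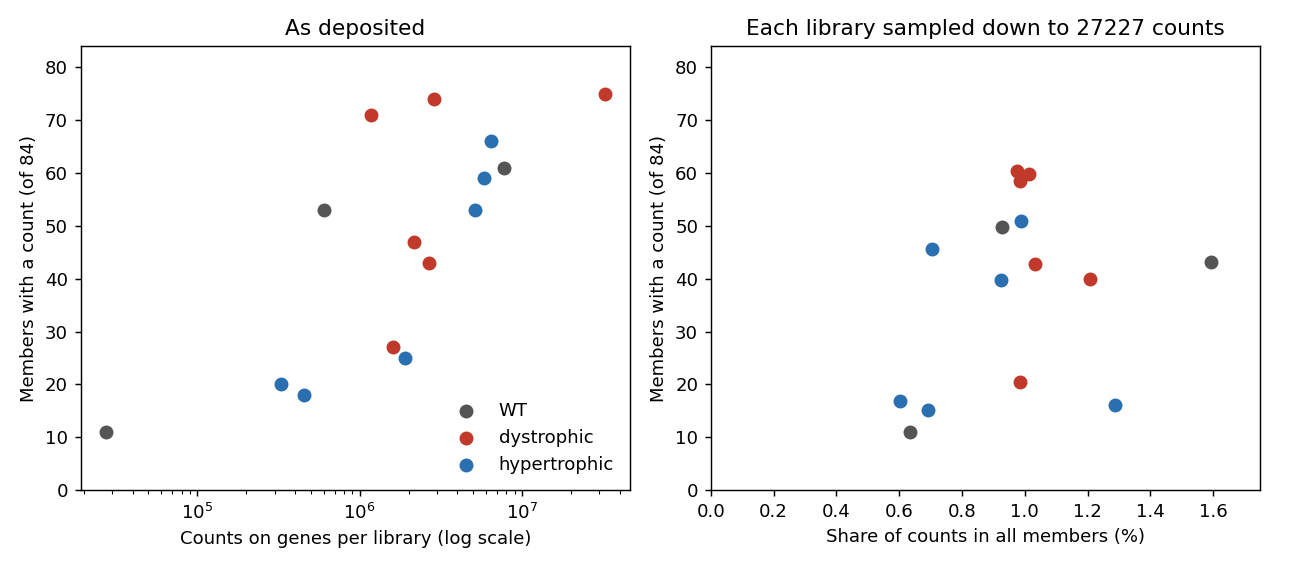
The left panel gives the number of respiratory chain genes with a count (of 84) against the counts on genes per library on a log scale, and the right panel gives the number left after each library was sampled down to 27227 counts against the share of counts that these genes held. Points are libraries coloured by condition, and dystrophic replicate 4 lies low in both panels with 27 and 20.4 genes although it held 0.986% of counts in them.

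In contrast to the number of genes, the share of all gene counts that fell on the respiratory chain was similar among the dystrophic-derived libraries. It was 0.635%, 0.926% and 1.59% in the WT-derived libraries, and ranged from 0.974% to 1.21% with a median of 1.0% in the dystrophic-derived and from 0.604% to 1.29% with a median of 0.814% in the hypertrophic-derived libraries. The means were 1.05 ± 0.491% (SD, n = 3), 1.03 ± 0.0876% (SD, n = 6) and 0.866 ± 0.253% (SD, n = 6), and each range overlapped with the others. Dystrophic replicate 4, with 27 genes, held a share of 0.986%, next to 0.974% in dystrophic replicate 5 with 74 genes. Among its 27 genes were Atp5g3 at 1805 CPM and Cox7a2l at 1646 CPM, the highest values of these genes in any of the 15 libraries. In the same libraries, the mitochondrially encoded subunits held 1.42 ± 0.714% (SD, n = 3), 1.05 ± 0.407% (SD, n = 6) and 1.69 ± 0.924% (SD, n = 6) of counts.

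By complex, complexes I, IV and V held most of these counts in every condition. In the order WT, dystrophic and hypertrophic, complex IV held 0.354 ± 0.0525% (SD, n = 3), 0.281 ± 0.0642% (SD, n = 6) and 0.294 ± 0.0478% (SD, n = 6) of all gene counts. Complex I, with 37 genes, held in the same order 0.252 ± 0.175%, 0.286 ± 0.113% and 0.275 ± 0.146%. Complex V held 0.316 ± 0.208%, 0.324 ± 0.0691% and 0.183 ± 0.0653%. Its range was 0.249% to 0.410% in the dystrophic-derived and 0.0745% to 0.267% in the hypertrophic-derived libraries, so that of the hypertrophic-derived libraries only replicate 6 reached into the dystrophic-derived range. With the crossed libraries exchanged, the mean for complex V was 0.245% for dystrophic and 0.263% for hypertrophic, so that its order did not hold. Complex III held 0.103 ± 0.0502%, 0.104 ± 0.0145% and 0.0809 ± 0.0299%, and complex II, the smallest, 0.0262 ± 0.0378%, 0.0375 ± 0.0353% and 0.0330 ± 0.0337%. Complex II was at 0 in WT replicate 1, dystrophic replicate 4 and hypertrophic replicate 3.

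**Figure D4:**
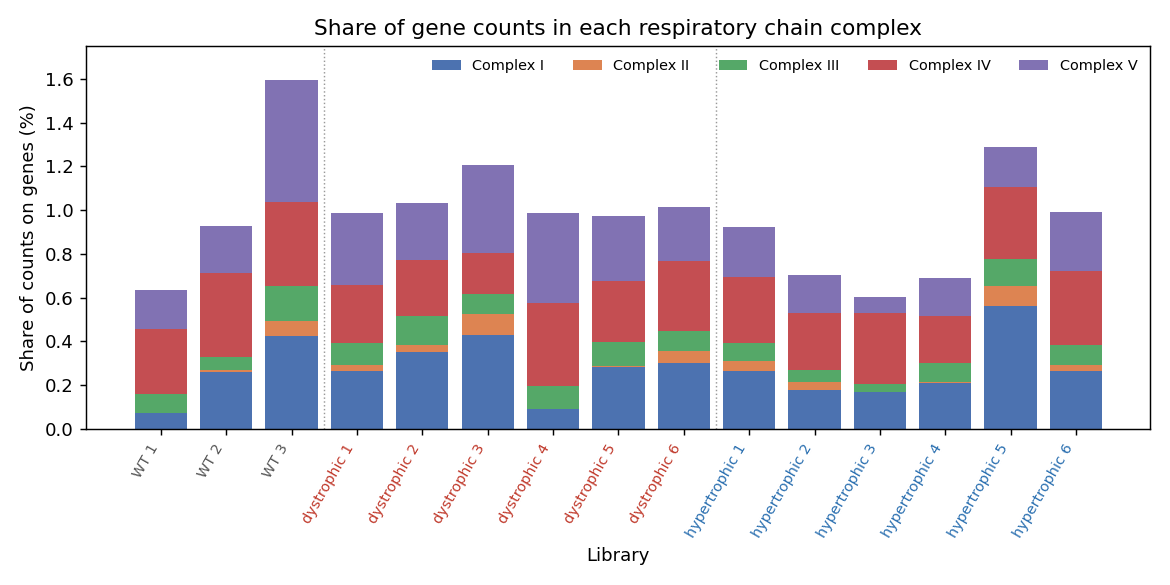
Stacked bars give, for each of the 15 libraries, the share of counts on genes (y axis, in percent) held by the subunit genes of each complex. The full height runs from 0.604% in hypertrophic replicate 3 to 1.59% in WT replicate 3, and the segment of complex II is absent in 3 libraries.

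Differences between the conditions were tested with the quasi-likelihood test of edgeR in 1 fit of the 6887 genes that passed its filter on low counts, with Benjamini-Hochberg adjusted p-values over all of them. Of the 84 genes, 76 passed the filter, and the 8 that did not were Atp5s, Atp5sl, Cox4i2, Cox6a2, Cox7a1, Cox7b2, Cox8b and Cox8c. No respiratory chain gene passed an adjusted p of 0.05 in any of the 3 comparisons, where 1, 2 and 1 of all genes did (0.0145% in dystrophic against WT, 0.029% in hypertrophic against WT and 0.0145% in hypertrophic against dystrophic). At an unadjusted p under 0.05, dystrophic against WT gave 1 of 76 genes (1.32%, against 2.02% of all genes), hypertrophic against WT 4 (5.26%, against 8.02%) and hypertrophic against dystrophic 6 (7.89%, against 12%). DESeq2 called 5 of the 76 genes in dystrophic against WT, 7 in hypertrophic against WT and 3 in hypertrophic against dystrophic (6.58%, 9.21% and 3.95%), against 19.1%, 22.2% and 4.69% of all genes. The biological coefficient of variation over the genes tested was 3.04, and its square is the dispersion. In simulated counts of dystrophic against WT, the same test called 97 of 100 genes changed 4-fold and 100 of 100 changed 16-fold at a dispersion of 0.1. At a dispersion of 4, still below that of these data, it called 0 of 100 and 0 of 100. The lack of calls therefore does not show that the genes were unchanged.

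The median log2 fold change of the 76 genes was 0.24 in dystrophic against WT, −0.61 in hypertrophic against WT and −0.73 in hypertrophic against dystrophic, beside 1.38, 0.66 and −0.52 for all genes tested. In the simulated counts at a dispersion of 4, the unchanged genes had a median of 1.02 in dystrophic against WT. A median above 0 for all genes is thus no measure of a general rise. With genes at 0 in a whole condition set to the bound that 3 counts over that condition allow, the medians were 0.24, −0.65 and −0.73 for the respiratory chain, and 1.34, 0.83 and −0.52 for all genes. In hypertrophic against dystrophic, 17 of the 76 genes had a positive and 59 a negative fold change, beside 2575 and 4312 of all genes. The comparisons share libraries and are not independent of each other. With the crossed libraries exchanged, the medians of the respiratory chain were −0.46, −0.06 and 0.19, so that the first and the last changed sign.

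Cox5a, a subunit of cytochrome c oxidase on the matrix side, was the most abundant member by CPM in 5 libraries and took 4.04% to 27.3% of the counts of all 84 genes. Its level was 1139, 1472 and 981 CPM in the WT-derived libraries. The first of these, from WT replicate 1, rests on only 31 counts and is the least certain. In the dystrophic-derived libraries it was 398 to 774 CPM with a median of 544 and a mean of 555 ± 137 CPM (SD, n = 6), and in the hypertrophic-derived libraries 541 to 1865 CPM with a median of 848 and a mean of 1067 ± 563 CPM (SD, n = 6). By CPM, all 6 dystrophic-derived libraries lay below the 3 WT-derived ones, whereas the hypertrophic-derived libraries spanned both ranges. CPM, here and in the permutation tests, hold no TMM factor, the scaling used in edgeR. That factor was 1.42 in WT replicate 1 and 0.658 in dystrophic replicate 6. Division by it puts dystrophic replicate 6 above WT replicate 1, so the separation does not hold under that scaling. In edgeR the log2 fold change of Cox5a was −1.12 (standard error 1.26, adjusted p = 0.841) in dystrophic against WT, −0.58 (standard error 1.28, adjusted p = 0.982) in hypertrophic against WT and 0.54 (standard error 1.07, adjusted p = 1.0) in hypertrophic against dystrophic. Because Cox5a and Cox8a had counts in every library, their mean CPM was also compared by exact two-sided permutation tests, chosen after the data were seen. The mean of Cox5a in dystrophic-derived EVs was 0.463 times that in WT-derived EVs (exact permutation p = 0.0238, the smallest that 6 against 3 libraries allow, and 0.136 adjusted over the 6 tests). In hypertrophic-derived EVs it was 1.92 times that in dystrophic-derived EVs (exact permutation p = 0.0455, adjusted 0.136) and 0.891 times that in WT-derived EVs (exact permutation p = 0.690, adjusted 0.786). None of these passed the correction, and with the crossed libraries exchanged the first ratio was 0.696 (exact permutation p = 0.262) and the second 0.946 (exact permutation p = 0.842).

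The platelet markers also reached lower in the dystrophic-derived libraries. Summed over 11 genes, none of them at 0 in every library, they held 1.87% to 2.88% of counts in WT-derived, 0.969% to 2.05% in dystrophic-derived and 1.65% to 3.45% in hypertrophic-derived libraries. The erythroid markers, of which 9 of 10 were in the files, held 2.35% to 8.82%, 4.75% to 15.8% and 3.14% to 8.94%. The part of either in the level of Cox5a was not tested, and in bulk RNA a smaller contribution of a cell type cannot be told apart from less RNA per cell. Without mitochondrially encoded and hemoglobin genes in the total, the ratio of dystrophic-derived to WT-derived Cox5a was 0.422 (exact permutation p = 0.0238). In the annotation of the mm10 genome, Cox5a (ENSMUSG00000000088.7, chromosome 9 from 57521274 to 57532426) overlaps the antisense gene Gm26631, and 9.11% of its windows of 50 bases, the length of a read, are found in other genes. The labels give a stranded kit and the methods of the study an unstranded one, so reads of the antisense gene may not have been separated.

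Cox8a, the ubiquitous form of the smallest subunit of cytochrome c oxidase, had no window of 50 bases in common with another gene. Its level was 551, 11.5 and 264 CPM in the WT-derived libraries, 86.3 to 324 CPM (median 237) in the dystrophic-derived and 15.2 to 623 CPM (median 319) in the hypertrophic-derived ones. The means were 276 ± 270 CPM (SD, n = 3), 216 ± 90.5 CPM (SD, n = 6) and 328 ± 246 CPM (SD, n = 6), and all ranges overlapped (exact permutation p = 0.619 for dystrophic against WT, 0.786 for hypertrophic against WT and 0.307 for hypertrophic against dystrophic). Per kilobase of the joined length of all exons, Cox8a had the highest mean level of the 83 members with a length, at 441 CPM. Cox5a followed with 423, Cox7a2l with 386, Uqcrh with 323 and Cox6b1 with 322 CPM per kilobase. The order depends on these lengths, which were 619 bases for Cox8a and 2101 for Cox5a. Without them the mean was 273 CPM for Cox8a and 888 CPM for Cox5a.

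Among the isoforms of cytochrome c oxidase, the ubiquitous ones were counted in more libraries than their tissue-restricted counterparts. Cox8b, the heart and skeletal muscle counterpart of Cox8a, and Cox8c, its testis counterpart, had 0 counts in all 15 libraries, and so had Cox4i2 and Cox7b2. Cox4i1, the ubiquitous partner of Cox4i2, was counted in 13 libraries, and Cox7b, the partner of Cox7b2, in 10. The other muscle isoforms were counted in 1 library each: Cox6a2 had 365 counts (227 CPM) in dystrophic replicate 4, and Cox7a1 had 87 counts (2.67 CPM) in dystrophic replicate 6, the deepest library. Their ubiquitous counterparts Cox6a1 and Cox7a2 were counted in 10 and 12 libraries, at up to 224 and 501 CPM. Cox6a2 overlaps the antisense gene Itgad, and dystrophic replicate 4 had no count of Cox6a1. Cox6b2, known from testis, was the most widely counted of the restricted isoforms, with counts in 8 libraries and a highest level of 771 CPM (21 counts) in WT replicate 1, where Cox6b1 was at 0. The skeletal muscle markers held at most 0.0389% of the counts of any WT-derived, 0.0168% of any dystrophic-derived and 0.0355% of any hypertrophic-derived library.

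**Figure D5:**
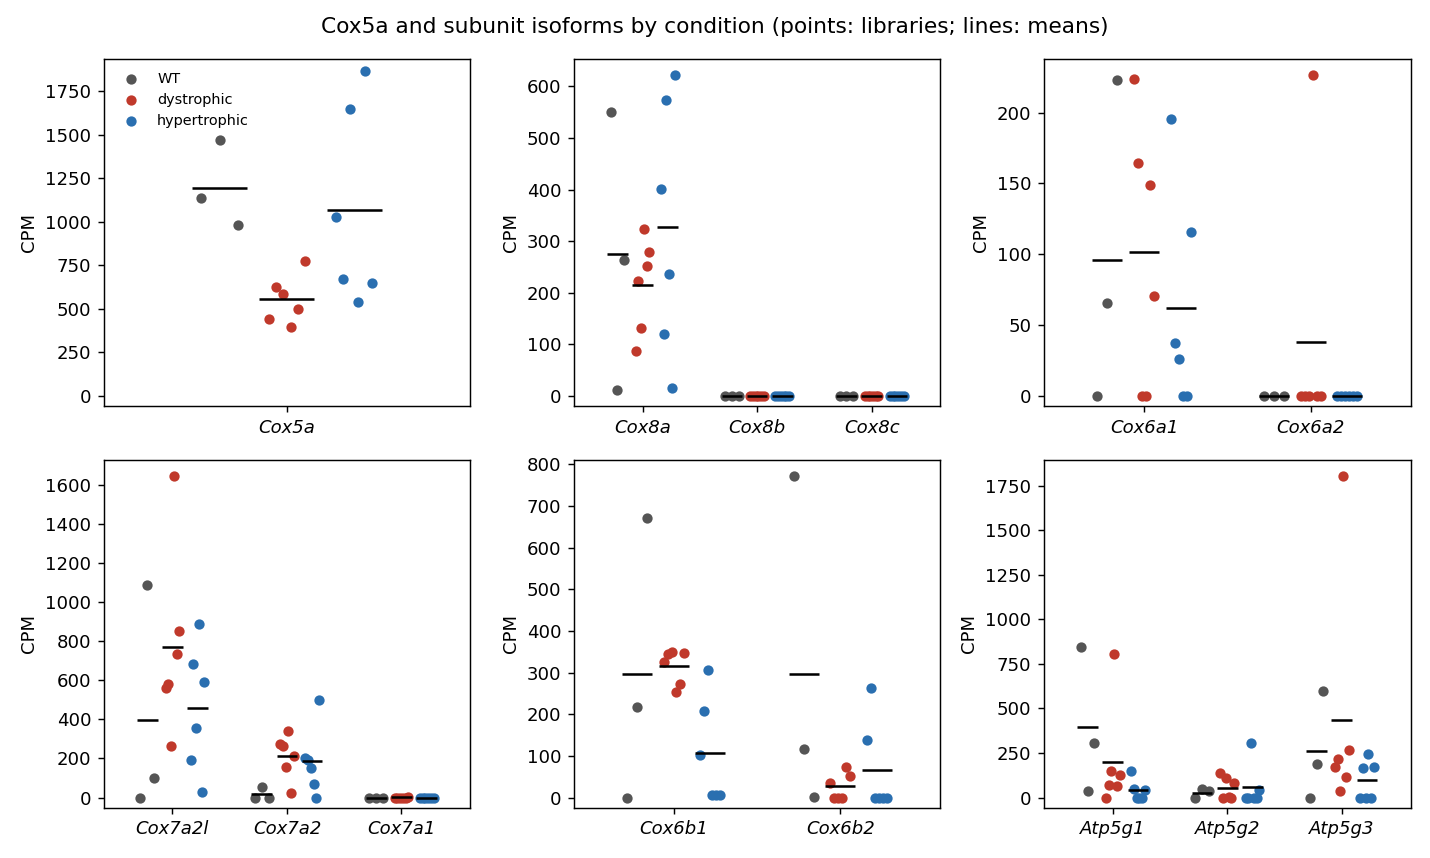
Points give the CPM of single libraries by condition and short lines the means, for Cox5a and for groups of isoforms. Cox8b and Cox8c lie at 0 throughout, Cox6a2 has a single value of 227 CPM, and the 6 dystrophic-derived values of Cox5a lie below the 3 WT-derived ones.

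The promoters of Cox8a, counted in every library, and of its muscle counterpart Cox8b, counted in none, are shown because they differ in the motifs searched, together with that of Cox5a. They are the 300 bases from 250 before to 50 after the gene start in RefSeq (GRCm38.p6), at chr19:7217567-7217866 on the minus strand for Cox8a, chr7:140900397-140900696 on the minus strand for Cox8b and chr9:57520982-57521281 on the plus strand for Cox5a. Capitals mark matches to any of the 6 motifs given below, read 5′ to 3′ on the strand of the gene.
Cox8a: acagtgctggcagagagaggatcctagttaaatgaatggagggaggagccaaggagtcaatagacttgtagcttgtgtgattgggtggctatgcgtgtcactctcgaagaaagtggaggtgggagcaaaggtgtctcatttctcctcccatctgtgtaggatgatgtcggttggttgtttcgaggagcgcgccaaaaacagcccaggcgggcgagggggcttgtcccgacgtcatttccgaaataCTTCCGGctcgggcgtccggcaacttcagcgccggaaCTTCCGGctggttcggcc
Cox8b: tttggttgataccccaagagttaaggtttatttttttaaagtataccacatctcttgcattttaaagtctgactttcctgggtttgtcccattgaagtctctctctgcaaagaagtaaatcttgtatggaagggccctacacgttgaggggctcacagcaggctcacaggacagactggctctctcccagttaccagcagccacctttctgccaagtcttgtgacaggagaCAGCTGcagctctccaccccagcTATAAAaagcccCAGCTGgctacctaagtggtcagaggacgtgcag
Cox5a: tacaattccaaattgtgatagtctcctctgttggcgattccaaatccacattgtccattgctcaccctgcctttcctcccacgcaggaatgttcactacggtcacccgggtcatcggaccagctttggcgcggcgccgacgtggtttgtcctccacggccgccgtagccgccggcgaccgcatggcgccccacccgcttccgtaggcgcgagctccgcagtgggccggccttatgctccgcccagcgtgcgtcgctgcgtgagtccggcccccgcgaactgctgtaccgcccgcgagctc
Cox8a held 2 matches to the core of ETS factors, Cox8b held 2 of the E-box of muscle regulators and 1 TATA box, and Cox5a held none of the 6. The TATA match of Cox8b begins 4 bases after the annotated start. The promoter of Cox7a1, another muscle isoform, was also searched and held none of the 6, so the matches of Cox8b are not a trait of the muscle isoforms as a group.

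The same search was made in the 61 members with exactly 1 promoter among the 32851 of the table, on both strands and without regard to overlap between motifs. The NRF1 core (GCGCA and GCGC with any base between) was in 15 of the 61 (24.6%, against 4.6% of all promoters), the ETS core (CCGGAAG) in 15 (24.6%, against 8.86%) and the YY1 core (AAGATGGC) in 8 (13.1%, against 2.75%). NRF1 and the ETS factor GABP are known regulators of respiratory chain genes. The MEF2 core (CTA and TAG with any 4 bases between) was in 1 (1.64%, against 3.69%), the E-box (CAGCTG) in 6 (9.84%, against 16.3%) and the TATA box (TATAAA) in 6 (9.84%, against 13.6%). The NRF1 core was about as frequent in the members counted in 10 or more libraries (6 of 23, 26.1%) as in those counted in 5 to 9 (9 of 34, 26.5%). In the same order, the ETS core was in 7 (30.4%) and 8 (23.5%), and the YY1 core in 2 (8.7%) and 6 (17.6%). None of these cores was in the 4 promoters of members counted in 0 to 4 libraries. These differences were not tested. A match is a description of the letters only.

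Among the genes placed in complex I by symbol, Ndufa4 was counted in the most libraries, with 13, although it is now assigned to complex IV. It was the only one of them with a count in WT replicate 1 (20 counts). Its level was 735, 409 and 274 CPM in the WT-derived libraries, 139 to 348 CPM in the dystrophic-derived and 0 to 770 CPM in the hypertrophic-derived ones, where replicates 4 and 5 were at 0. The accessory subunit Ndufa3 followed with 12 libraries, and Ndufa2, Ndufa7, Ndufb10 and Ndufb11 with 11 each. Ndufa2 reached 907 CPM in dystrophic replicate 3 and Ndufa7 reached 657 CPM in hypertrophic replicate 5. The related gene Ndufa4l2, known for its induction in hypoxia, was counted in only 3 libraries, WT replicate 2 (22.1 CPM) and dystrophic replicates 1 and 5 (53.8 and 44.6 CPM).

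The smallest p-values in the comparisons with hypertrophic-derived EVs belonged to genes of complex I that had no count in any of the 6 hypertrophic-derived libraries. Ndufv1, the core subunit that binds NADH, was at 0, 0 and 161 CPM in the WT-derived libraries and was counted in 4 of the 6 dystrophic-derived ones at 51.3 to 97.9 CPM. Ndufa5, an accessory subunit, was at 0, 187 and 0 CPM in the WT-derived libraries and was counted in 4 dystrophic-derived ones at 22.5 to 221 CPM. The adjusted p-values of Ndufa5, Ndufv1 and Ndufa4l2 in edgeR were each 0.123 in hypertrophic against dystrophic and 0.267, 0.267 and 0.309 in hypertrophic against WT. The libraries at 0 also included 2 of the WT-derived and 2 of the dystrophic-derived ones for each of Ndufa5 and Ndufv1. The absence from hypertrophic-derived EVs rests on the labels of the crossed libraries. With these exchanged, dystrophic replicates 5 and 6 count as hypertrophic-derived, with Ndufa5 at 22.5 and 76.3 CPM and Ndufv1 at 97.9 and 77.0 CPM. Ndufa4l2 was at 44.6 CPM in the former. Ndufb6 was at 0 in all 3 WT-derived libraries and was counted in 3 dystrophic-derived libraries, with a highest level of 433 CPM in dystrophic replicate 3, and in 3 hypertrophic-derived ones at up to 152 CPM (adjusted p = 0.433 in dystrophic against WT, edgeR). Of its windows of 50 bases, 31.6% are shared with the overlapping gene Smim27.

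The 4 subunits of complex II were counted in few libraries together. Sdha, the flavoprotein that binds succinate, was at 0, 45.6 and 449 CPM in the WT-derived libraries, and ranged from 0 to 250 CPM in the dystrophic-derived (median 56.0) and from 0 to 82.4 CPM in the hypertrophic-derived libraries. Sdhb, the iron-sulfur subunit, reached 246 CPM in WT replicate 3, 130 CPM in dystrophic replicate 6 and 554 CPM in hypertrophic replicate 5. Of the membrane anchors, Sdhc was counted in 10 libraries at up to 456 CPM in dystrophic replicate 3. Sdhd was at 0 in all 3 WT-derived libraries, was counted in 4 dystrophic-derived libraries at 9.0 to 422 CPM and in hypertrophic replicate 2 at 115 CPM. Sdhd had the smallest p of the members in dystrophic against WT, with an adjusted p of 0.433 in edgeR.

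In complex III, Uqcrh, the hinge protein, was counted in 13 libraries. It was at 0, 327 and 1087 CPM in the WT-derived libraries, 0 to 838 CPM in the dystrophic-derived and 51.6 to 1244 CPM in the hypertrophic-derived libraries, with overlap between all conditions. Uqcrb, a small subunit near the ubiquinone site, was the only member whose dystrophic-derived libraries all lay above the WT-derived ones, with 0, 0 and 3.32 CPM in WT and 36.9 to 252 CPM in dystrophic-derived EVs (1 of 76, against 0.479% of all genes tested; adjusted p = 0.433, edgeR). The count of 0 in WT replicate 1 allows up to 110 CPM, above the 36.9 CPM of dystrophic replicate 6. For that library the separation is therefore not established. In the hypertrophic-derived libraries Uqcrb was at 0 in replicates 3, 4 and 5 and at 119 to 309 CPM in the other ones. With the crossed libraries exchanged, replicate 3 counts as dystrophic-derived, and Uqcrb was then not separated from WT. Of its windows of 50 bases, 25.5% are shared with other genes. By CPM without the TMM factor, Cox5a was the only member that lay entirely below WT in dystrophic-derived EVs (1 of 76, against 0.276%). No member was separated in either direction in hypertrophic against WT, where 0.174% of all genes lay above and 0.276% below. Uqcrfs1, the Rieske iron-sulfur protein, was at 0, 0 and 1.66 CPM (1 count) in the WT-derived libraries and was counted in 5 of 6 dystrophic-derived libraries at 69.4 to 361 CPM (adjusted p = 0.433, edgeR). Uqcr11 and Uqcrc1, a small and a core subunit, were counted in 10 libraries each, at up to 881 CPM (24 counts) in WT replicate 1 and 365 CPM in dystrophic replicate 3.

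In complex IV, besides Cox5a and Cox8a, Cox7a2l, Cox6b1 and Cox6c were counted in 14 libraries, all but WT replicate 1. Cox7a2l was at 0, 1088 and 101 CPM in the WT-derived, 262 to 1646 CPM in the dystrophic-derived and 30.4 to 887 CPM in the hypertrophic-derived libraries. Of its windows of 50 bases, 13.8% are shared with Gm6969. Cox6b1 was at 0, 216 and 672 CPM in the WT-derived libraries, and at 254 to 349 CPM in the dystrophic-derived ones. In the hypertrophic-derived libraries it was at 103, 207 and 306 CPM in replicates 1 to 3 and at 5.26 to 6.65 CPM in replicates 4 to 6, where the counts were 3, 2 and 34. The 3 higher libraries are those with crossed numbers.

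In complex V, Atp5b, the catalytic beta subunit, was counted in every library except WT replicate 1. It was at 0, 218 and 417 CPM in the WT-derived, 113 to 604 CPM in the dystrophic-derived and 125 to 736 CPM in the hypertrophic-derived libraries. Atp5d of the central stalk was counted in 14 libraries, and Atp5h and Atp5f1 of the peripheral stalk in 13 each. Atp5h ranged from 0 to 1142 CPM in WT-derived, 4.35 to 406 CPM in dystrophic-derived and 0 to 341 CPM in hypertrophic-derived libraries. Atp5j2, a small membrane subunit, was the only member that did not overlap between hypertrophic-derived and dystrophic-derived EVs, lower in the former (1 of 76, against 0.145% of all genes tested below and 0.0145% above). It was at 0 to 0.391 CPM (2, 2, 0, 0, 0 and 1 counts) in hypertrophic-derived and at 2.98 to 170 CPM in dystrophic-derived libraries (adjusted p = 0.201, edgeR). The counts of 0 in hypertrophic replicates 4 and 5 allow up to 6.65 and 9.13 CPM. Both bounds are above the 2.98 CPM (8 counts) of dystrophic replicate 3, so the separation lies within the limit of detection. With the crossed libraries exchanged, the values of Atp5j2 overlapped. Dystrophic replicate 4 (170 CPM) then counts as hypertrophic-derived and hypertrophic replicate 3 (0 CPM) as dystrophic-derived. Atp5g1, Atp5g2 and Atp5g3 encode the same mature ring subunit c and were counted in 11, 9 and 12 libraries. Atp5g3 was the highest of them in 10 libraries, Atp5g1 in 3 and Atp5g2 in 1, and in 1 library none of them was counted. Of the windows of Atp5g2, 38.3% are shared with other genes, the highest share of all members, so its level is uncertain.

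The genes around the respiratory chain were taken from lists of known genes. Of 45 assembly factors, 43 were in the files and were counted in a median of 3 libraries. An exception was Coa5, an assembly factor of cytochrome c oxidase, with counts in 14 libraries and means of 400, 503 and 1014 CPM in WT-derived, dystrophic-derived and hypertrophic-derived EVs. Atpif1, the inhibitor of the ATP synthase, was counted in 13 libraries, and the electron carrier genes Cyc1 and Cycs in 7 and 8. The 12 regulators of mitochondrial biogenesis were counted in a median of 3.5 libraries, near the 3 of all genes with a count. Tfam, which acts on mitochondrial DNA, was counted in 8 libraries at up to 405 CPM, Yy1 in 7 at up to 448 CPM, Gabpa in 6, and Nrf1 and Esrra in 5 each. Ppargc1a, the best known coactivator, had 1 count in all libraries together, while Ppargc1b, Tfb1m and Polrmt had 0. Of the 13 mitochondrially encoded subunits, mt-Nd1, mt-Nd4, mt-Nd5, mt-Cytb and mt-Co1 were counted in all 15 libraries. In contrast, mt-Co2 had 1 count, mt-Co3 had 2, mt-Atp6 had 105, and mt-Nd4l and mt-Nd6 had 0. Reads with an ambiguous or non-unique position were not counted on genes, and their part in these low counts was not tested. None of the tested genes of these lists or of the ribosomal protein lists passed an adjusted p of 0.05 in edgeR. At an unadjusted p under 0.05, dystrophic against WT gave 1 gene of these lists, a regulator that was lower in dystrophic-derived EVs (2.02% of all genes tested passed). Hypertrophic against WT gave 4 of 23 assembly factors, 6 of 60 proteins of the mitochondrial ribosome, 1 of 82 cytosolic ribosomal proteins and 1 of the 8 electron carriers and related genes, all lower (8.02% of all genes tested passed). Hypertrophic against dystrophic gave 4, 8, 4 and 1 of the same lists, all lower, and 1 of 7 regulators and 1 of 7 mitochondrially encoded subunits, both higher (12% of all genes tested passed).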

How the data were processed

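RNA of plasma EVs was measured by RNA sequencing in 15 libraries (3 WT, 6 dystrophic, 6 hypertrophic), grouped by the genotype label. The authors deposited raw counts, whole numbers of reads per gene symbol and library, without normalization or filter. According to the methods of the study, RNA was preamplified and single reads of 50 bases were aligned with TopHat to mm10, and the submitters' processing notes also name HTSeq and DESeq. Those notes list no versions, and the annotation used for counting was not given in the sources used here. Preamplification can multiply a few molecules of a gene and lose those of another, so that counts of a gene in a library are less certain than their size implies.

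The 5 summary rows of each file, which name no gene, held 57.9% to 99.2% of its total and were left out. CPM were computed over the remaining 43472 symbols, and a gene was detected with at least 1 count. The 84 members were placed in complexes by symbol, and 3 pseudogene symbols were left out. The members, the gene lists and the tests were chosen with earlier results of these data known. Genes were named by a rule: the 4 members counted in most libraries in complexes I, III, IV and V (ties by mean CPM), all 4 of complex II, those with the 3 smallest p in each comparison, families with tissue-restricted isoforms, and members at 0 throughout. Atp5j2, Atp5s, Atp5sl, Cox6c, Ndufb10 and Ndufb11 were named after their values were seen. The list of cytosolic ribosomal proteins left out the Rps6k kinases that share the start of the symbol.

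The main test was the quasi-likelihood test of edgeR 4.0.16 (R 4.3.3, limma 3.58.1), with TMM normalization, filterByExpr and 1 fit of all 15 libraries without covariates. It was first tested on simulated data, where it called 0 of the genes changed 4-fold or 16-fold at a dispersion of 4. DESeq2 1.42.0 was an alternative, with 645 adjusted p-values missing in each comparison. DESeq was not run. Exact permutation tests of mean CPM were run with scipy 1.17.1 for the 2 genes counted in every library, which was decided after the data were seen. Positions, exon lengths and windows of 50 bases came from GENCODE M21, where 83 of the 84 symbols matched, 1 of them through a synonym. In all, 28 members overlap an exon of another gene. Levels per kilobase use the joined length of all exons. Promoters came from RefSeq, which gave 66 members at least 1.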

Additional observations from a re-analysis of the deposited data

Results flagged for a closer look

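Within the groups of 6 libraries, the highest and the lowest library of each reported value were compared with the rest by Dixon's criterion. Of 79 groups of values checked, 17 had a library that stood apart. For normally distributed values about 1 in 20 would by chance. The values were used untransformed, and skewed values can meet the criterion more often, so the 17 are no measure of an excess. Genes at 0 in most libraries meet the criterion whenever a single library has a count.

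Among the shares, the respiratory chain as a whole stood apart in dystrophic replicate 3 with 1.21% of counts, and complex I in hypertrophic replicate 5 with 0.561%. In dystrophic replicate 3, Atp5f1 (796 CPM), Sdhc (456 CPM) and Ndufb6 (433 CPM) stood apart as well. In dystrophic replicate 4, the library with 27 of the 84 genes, this held for Atp5g3 (1805 CPM), Atp5g1 (803 CPM) and Cox6a2 (227 CPM). Uqcrh stood apart in dystrophic replicate 2 (838 CPM), and Sdha (250 CPM) and Cox7a1 (2.67 CPM) in dystrophic replicate 6.

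Among the hypertrophic-derived libraries, replicate 1 stood apart for Ndufa2 (180 CPM), Uqcrc1 (196 CPM) and Atp5g1 (148 CPM), replicate 2 for Sdhd (115 CPM), replicate 3 for Atp5g2 (305 CPM) and replicate 5 for Ndufa7 (657 CPM). Cox5a and Cox8a, the members counted in every library, had no library that stood apart in either condition. The cause of these values was not tested.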

How the results depend on the processing

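No respiratory chain gene was called by edgeR under any alternative run, whereas DESeq2 called 5, 7 and 3 in dystrophic against WT, hypertrophic against WT and hypertrophic against dystrophic. In the same order, the number of all genes called (1, 2 and 1) was 1315, 1528 and 323 with DESeq2, where 1491, 1724 and 773 had an unadjusted p under 0.05. It was 0 in all 3 without a filter on low counts (580, 1120 and 4382 at an unadjusted p under 0.05) and 0 in all 3 without mitochondrial and hemoglobin genes (127, 529 and 815), where the genes called were among those removed. It was 3 in dystrophic against WT without TMM and 3 in the 9 libraries whose numbers match, and 2 with the 6 crossed libraries exchanged. In hypertrophic against dystrophic it was 0 with these libraries exchanged and 0 with only the 9. Leaving out each library in turn gave 1 to 2, 1 to 3 and 0 to 2 genes, and 0 respiratory chain genes in each comparison.

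The share of counts in the respiratory chain in dystrophic-derived EVs was 1.30% without mitochondrial and hemoglobin counts and 0.909% with the crossed libraries exchanged, beyond the spread of 1 SD. The other means of this share and all means of the number of genes detected moved by less than 1 SD under the alternatives run. Leaving out each library in turn gave shares of 0.781% to 1.26% in WT-derived, 0.998% to 1.04% in dystrophic-derived and 0.782% to 0.918% in hypertrophic-derived EVs, and 32.0 to 57.0, 52.4 to 62.0 and 35.0 to 44.6 genes.

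For Cox5a, the log2 fold change in hypertrophic against dystrophic was −0.14 with the crossed libraries exchanged, and its ratio was then 0.946. Its ratio in dystrophic to WT was 0.425 to 0.523 with each library left out in turn, and with any single WT-derived library left out the exact permutation p was 0.0714, the smallest that 6 against 2 allow. Its ratio in hypertrophic to dystrophic was 1.64 to 2.11 (exact permutation p of at most 0.0909) and in hypertrophic to WT 0.758 to 1.01, above 1 without WT replicate 2. For Cox8a the ratio was 0.530 to 1.57 in dystrophic to WT, above 1 without WT replicate 1, and 0.806 to 2.38 in hypertrophic to WT, below 1 without WT replicate 2 or hypertrophic replicate 6. The cause was not tested. No paired analysis was possible because no library number in the titles is shared between conditions, and the replicate numbers used here follow the order of the samples. With a covariate for the title numbering, the counts of calls were the same (1, 2 and 1 genes, 0 of them members), and the median log2 fold changes of the members were 0.09, −0.85 and −1.10. Depth limits WT replicate 1 most, where 1 count is worth 36.7 CPM and a count of 0 allows up to 110 CPM.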
